A study of Mus musculus with 2 samples.

Results

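The 10 genes described here make, inactivate or sense prostaglandins, and they were measured in eosinophils of the healthy mouse colon. They were chosen by name: Ptgs1, Ptgs2, Ptges, Ptges2, Ptges3, Hpgd, Hpgds, Tbxas1, Ptger2 and Ptger4. Each was looked up by its symbol, and the transcript row with the most reads was kept, which gave 10 of 23456 genes. The 10 genes had 11 rows in the table, 1 row for 9 of them and 2 rows for Ptger4. The cells came from the colons of untreated wild-type C57BL6 mice and were sorted by flow cytometry after the tissue had been digested with enzymes. The data hold 1 group of 2 samples, each made into 3 technical libraries with CEL-Seq, an assay that reads messenger RNA near its 3′ end. The sources used here do not give the age of the mice, how many went into a sample, whether the samples came from separate animals, or the sort gate.

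Prostaglandins are lipid signals made from arachidonic acid. The cyclooxygenases Ptgs1 and Ptgs2 turn the acid into the unstable intermediate PGH2, and a terminal synthase then sets which product a cell makes: thromboxane A2 (Tbxas1), prostaglandin D2 (Hpgds) or prostaglandin E2 (Ptges, Ptges2 and Ptges3). Hpgd, the prostaglandin dehydrogenase, inactivates prostaglandin E2. The receptors EP2 (Ptger2) and EP4 (Ptger4) sense prostaglandin E2 and raise cyclic AMP. In the gut this pathway is known for its part in mucosal protection and repair, and eosinophils are known as a source of lipid mediators.

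Every value is the authors' mean over the 6 libraries, and it therefore carries neither an SD nor a test between the samples. A level is an RPKM value (reads per kilobase of transcript per 1000000 reads). In brackets is the exact 95% Poisson interval of its reads over the 6 libraries, scaled to RPKM. The scaling takes the authors' mean RPKM as proportional to the summed reads, so RPKM intervals and per-length ratio intervals are approximate. Intervals cover counting error only, and reads copied from 1 molecule during amplification count as separate reads. The genes held 7692387 reads over the 6 libraries, and the 10 prostaglandin genes held 3046 of them, or 0.0396%. RPM, reads per 1000000 reads on genes, has no length term and is given where it changes a comparison. Of the 8 eosinophil marker genes, 7 had an RPKM of 1 or more, beside 31% of all genes. The median of the 8 was 76.8, whereas the peroxidase gene Epx stood at 0.265. In a sorted bulk sample, fewer cells that carry a transcript and less of it per cell cannot be told apart.

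Thromboxane synthase was the most abundant of the 10 genes by a wide margin, and both cyclooxygenase genes were present at similar levels. The prostaglandin D2 synthase Hpgds and the inducible prostaglandin E2 synthase Ptges were below an RPKM of 1. Without length, Hpgds and Ptges were at 4.42 and 4.81 RPM, above 64.7% and 65.7% of all genes. All 10 genes were above 0, as were 69.1% of all 23456 genes, and 7 had an RPKM of 1 or more, as did 31% of all genes. The median of the 10 levels was 1.40, beside 0.186 for all genes and 0.750 for genes above 0. Tbxas1 alone held 69.8% of their summed RPKM of 72.6. In descending order of RPKM the genes were Tbxas1, Ptgs1, Ptgs2, Ptges3, Ptger4, Hpgd, Ptges2, Ptges, Hpgds and Ptger2. Of the 9 neighbouring pairs in this order, 5 had a ratio whose 95% interval excluded 1 and 4 did not. The pairs not resolved per length were Ptger4 with Hpgd, Hpgd with Ptges2, Ptges with Hpgds, and Hpgds with Ptger2. In reads, Ptger4 was 2.24 times Hpgd (1.51 to 3.37), which excluded 1. The reverse held for Ptgs1 with Ptgs2 (0.881 to 1.17) and Ptges2 with Ptges (0.674 to 1.74). Their intervals excluded 1 per length but included it in reads.

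**Figure D1:**
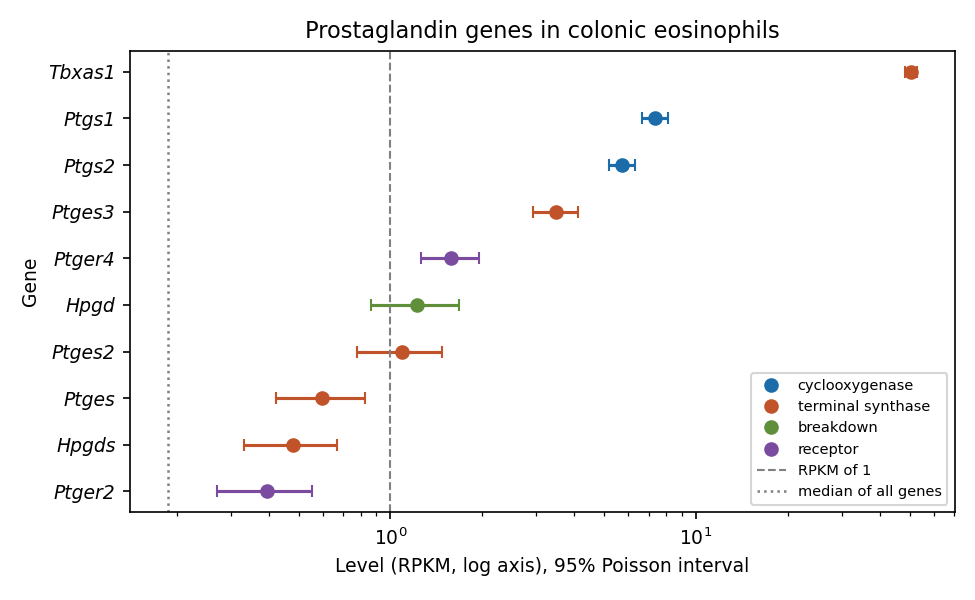
Level of each of the 10 prostaglandin genes (RPKM, log axis) with the 95% Poisson interval of its reads scaled to RPKM, coloured by role. The dashed line marks an RPKM of 1 and the dotted line the median of all genes. Tbxas1 stands at 50.6, the cyclooxygenases at 7.36 and 5.74, and Ptges, Hpgds and Ptger2 lie below 1 with their whole intervals.

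The promoters of the 3 genes with the most reads are printed because these genes hold most of the reads of the 10 and because the cyclooxygenase genes, nearly equal in reads, hold different motifs at their starts. Sequences and coordinates are from RefSeq (GRCm38.p6), from 250 bases before to 50 after the start that RefSeq annotates, written along the gene's strand, and all 10 genes were matched. That start is also the start of the table's row in 8 of the 10 genes; the Ptgs2 row begins 93 bases further downstream, past the end of its window, and the Ptger4 row 505 bases further downstream. Motif distances below are from the RefSeq start. Capitals mark matches, on either strand, to 6 motifs. These were the promoter element known as the TATA box, here with the letters TATAAA, the core of the cyclic AMP response element with the letters TGACG, the E-box with the letters CACGTG, the motif of the C/EBP factors with the letters TTGCNNAA, that of the GATA factors with the letters GATAA, and that of PU.1 with the letters GAGGAA. The windows are chr2:36230176-36230475 (+) for Ptgs1, chr1:150099781-150100080 (+) for Ptgs2 and chr6:38918736-38919035 (+) for Tbxas1.
Ptgs1: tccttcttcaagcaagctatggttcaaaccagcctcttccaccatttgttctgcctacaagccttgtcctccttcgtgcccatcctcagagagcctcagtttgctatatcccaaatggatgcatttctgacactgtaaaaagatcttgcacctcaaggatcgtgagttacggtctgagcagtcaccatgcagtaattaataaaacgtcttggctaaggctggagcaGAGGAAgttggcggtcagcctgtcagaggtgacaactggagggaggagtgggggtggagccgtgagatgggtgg
Ptgs2: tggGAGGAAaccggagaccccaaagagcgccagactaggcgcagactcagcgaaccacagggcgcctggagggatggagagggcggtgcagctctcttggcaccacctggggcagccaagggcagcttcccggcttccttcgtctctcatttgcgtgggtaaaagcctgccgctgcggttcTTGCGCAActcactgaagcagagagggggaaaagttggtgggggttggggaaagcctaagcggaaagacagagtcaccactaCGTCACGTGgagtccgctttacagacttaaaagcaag
Tbxas1: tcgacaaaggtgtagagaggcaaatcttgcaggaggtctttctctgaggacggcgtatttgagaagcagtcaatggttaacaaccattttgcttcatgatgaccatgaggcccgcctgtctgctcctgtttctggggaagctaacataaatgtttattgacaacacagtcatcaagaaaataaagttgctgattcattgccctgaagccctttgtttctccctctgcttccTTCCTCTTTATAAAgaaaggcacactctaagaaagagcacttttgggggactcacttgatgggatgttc

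In the Ptgs1 window the only match was a PU.1 motif, beginning 24 bases before the start. The Ptgs2 window held TTGCGCAA, a C/EBP match beginning 69 bases before the start, and a cyclic AMP core on the other strand whose letters overlap an E-box, beginning 14 and 17 bases after it. A PU.1 motif lay at its far end, 247 bases before the start. In the Tbxas1 window, the TATA box letters were found on both strands, overlapping, 11 and 13 bases before the start, directly after a PU.1 motif on the other strand that begins 19 bases before it. Of 32851 promoter windows of this length, 28.3% hold the PU.1 motif, 10.8% the C/EBP motif, 13.6% the TATA box, 20.8% the cyclic AMP core, 7.15% the E-box and 25.4% the GATA motif. Among the 10 genes, the PU.1 motif was found in 6, the C/EBP motif in 3, the TATA box, the cyclic AMP core and the E-box in 2 each, and the GATA motif in 1. These are letter matches and say nothing about binding in these cells.

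The cyclooxygenases came next after Tbxas1. Ptgs1, which encodes the constitutive enzyme COX-1 and lies on chromosome 2 from 36230426 to 36252269 (mm10, plus strand), had an RPKM of 7.36 (6.65 to 8.12) from 398 reads. Ptgs2, which encodes the inducible enzyme COX-2 and lies on chromosome 1 from 150100124 to 150108012 (plus strand), had 5.74 (5.19 to 6.34) from 392 reads. Ptgs1 exceeded 88.9% of all genes in RPKM and Ptgs2 87.0%. Per length, Ptgs2 was at 0.780 of Ptgs1 (0.677 to 0.899), so the interval excluded 1. Without length the ratio was 0.985 (0.855 to 1.14), and the pair was not distinguishable at this depth.

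The Ptgs2 row of the table ends 215 bases before the 3′ end of the matching transcript in GENCODE M21, and its last 40 bases hold no AATAAA, the usual polyadenylation signal, while the last 40 of the GENCODE transcript do. Reads that lie beyond the row's end are outside its value, and how many there were was not tested. For 8 of the 10 genes the row ended within 20 bases of the GENCODE end, as it did for Ptgs1. The other exception was Ptges2, where GENCODE continues for 3032 bases, although its row does end with an AATAAA.

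The 3′ untranslated region of Ptgs2, known as a target of proteins that bind AU-rich elements and control messenger RNA decay, held 12 copies of ATTTA in the 2230 bases that the table's row covers. Only 1.79% of 18367 genes had as many, and the median gene had 1. This share does not allow for length, and the median length of the region was 663 bases. Per kilobase Ptgs2 held 5.38 copies, beside a median of 0.920. The next highest of the 10 genes per kilobase were Hpgd at 4.77 and Ptger4 at 4.07. The 30-base stretch with the most copies is printed because it shows this element of the inducible gene; ATTTA is in capitals, and it spans bases 12 to 41 after the stop codon.
Ptgs2: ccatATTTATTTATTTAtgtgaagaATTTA

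By contrast, Ptgs1, Tbxas1, Ptges and Ptges2 held no ATTTA in the part of the 3′ untranslated region that the table's row covers. For Ptges2 this part was 412 bases, and GENCODE continues for 3032 bases past the row. Copies numbered 6 in Ptger2, 5 in Ptger4, 4 each in Ptges3 and Hpgd, and 2 in Hpgds. In all, 6 of the 10 genes held at least 1 copy in the bases searched, beside 57.3% of all genes searched.

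Among the terminal synthases, Tbxas1 stood far above the rest. Tbxas1 (chromosome 6, 38918986 to 39084579, plus strand), a cytochrome P450 enzyme of the endoplasmic reticulum that converts PGH2 to thromboxane A2, had an RPKM of 50.6 (48.4 to 53.0) from 1852 reads. It ranked 580 among all genes by RPKM and 639 by reads. Its level was 6.88 times that of Ptgs1 (6.17 to 7.69), and 4.65 times (4.17 to 5.20) without length. Against Hpgds, the hematopoietic prostaglandin D2 synthase, the ratio of levels was 106 (75.6 to 153), and against Ptges it was 84.8 (61.3 to 121). Without length these ratios were 54.5 (38.8 to 78.9) and 50.1 (36.2 to 71.3).

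Hpgds (chromosome 6, 65117293 to 65144730, minus strand) had an RPKM of 0.478 (0.331 to 0.668) from 34 reads. Ptges (chromosome 2, 30889471 to 30903297, minus strand), the inducible membrane enzyme that is often coupled to COX-2, had 0.598 (0.421 to 0.824) from 37 reads. Hpgds was at 0.800 of Ptges per length (0.487 to 1.31), an interval that includes 1, so these data do not order the last step to prostaglandin D2 and the inducible last step to prostaglandin E2.

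The other prostaglandin E2 synthase genes were higher than Ptges per length. Ptges2 (chromosome 2, 32395890 to 32402740, plus strand), a membrane-associated synthase, had 1.09 (0.776 to 1.48) from 40 reads. Ptges3 (chromosome 10, 128058982 to 128077254, plus strand) had 3.48 (2.92 to 4.11) from 137 reads; it encodes p23, which is also a co-chaperone of Hsp90 found in most cells. Ptges3 was 3.20 times Ptges2 (2.24 to 4.67). Ptges2 was 1.82 times Ptges (1.13 to 2.92) per length but 1.08 times (0.674 to 1.74) in reads, where the interval includes 1.

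Hpgd (chromosome 8, 56294552 to 56321046, plus strand), the enzyme that starts the inactivation of prostaglandin E2 and is known to be abundant in gut epithelium, had an RPKM of 1.22 (0.865 to 1.68) from 38 reads. It ranked 6 among the 10 genes by RPKM and 7 by reads.

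Of the receptor genes, Ptger4 was higher than Ptger2. Ptger4 (chromosome 15, 5233404 to 5243682, minus strand) had an RPKM of 1.57 (1.26 to 1.95) from 85 reads, and Ptger2 (chromosome 14, 44988111 to 45003820, plus strand) had 0.394 (0.271 to 0.553) from 33 reads. The ratio of Ptger4 to Ptger2 was 3.99 (2.64 to 6.16) per length and 2.58 (1.70 to 3.98) in reads; both intervals excluded 1. All 85 Ptger4 reads were listed on the transcript NM_001136079, and the second row, NM_008965, was listed at 0. The 3′ end of that second row lies 461 bases upstream of the first, on the minus strand, so the reads were listed on the row with the more distal 3′ end.

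**Figure D2:**
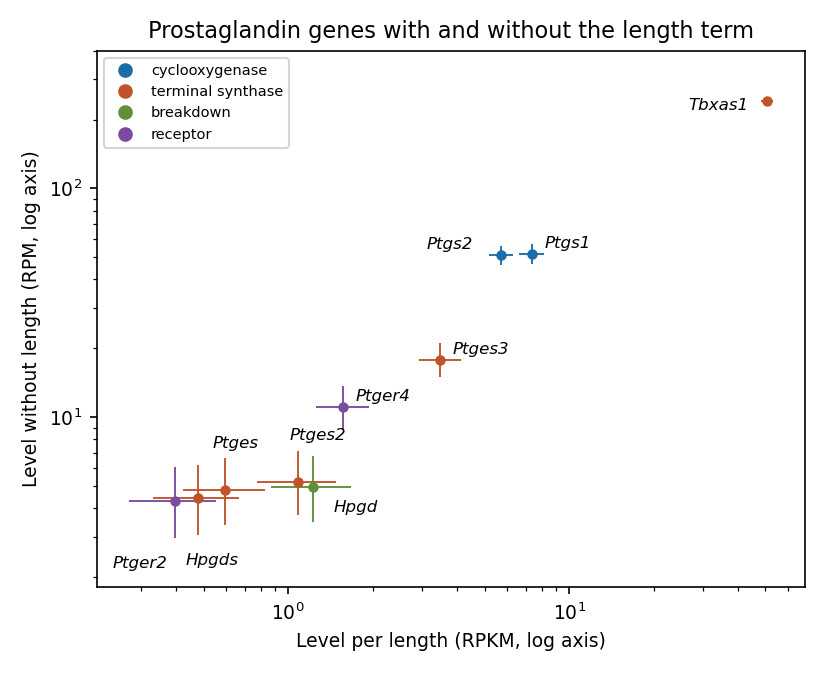
Level of each prostaglandin gene per length (RPKM, horizontal log axis) against its level without length (RPM, vertical log axis), coloured by role. Bars are 95% Poisson intervals of the reads, scaled to each axis. Ptgs1 and Ptgs2 lie at the same height, 51.7 and 51.0 RPM, and 5 genes lie together between 4.29 and 5.20 RPM although their RPKM runs from 0.394 to 1.22.

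Sequence that other genes share was searched in words of 35 bases over the final 500 bases of each transcript. In 8 of the 10 genes 0% of the words occurred in a transcript of another gene, and in Ptgs1 and Ptges 0.215% did. No other annotated gene had an exon over those last 500 bases in any of the 10. Over their whole spans 5 of the 10 overlapped another annotated gene, and whether counting used the strand is not given.

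Around the 10 genes, 52 further genes of the pathway were looked up in 6 lists. Of these, 26 had an RPKM of 1 or more, as did 31% of all genes. For the supply of arachidonic acid, 5 of 12 release genes did so, led by the cytosolic phospholipase Pla2g4a at 38.5 (36.7 to 40.3). Pla2g2a had 16.4, the monoacylglycerol lipase Mgll 9.69, the diacylglycerol lipase Daglb 4.65 and Pla2g10 1.93. These are RNA levels, and whether an active enzyme is made from each gene in these mice was not tested. All 3 genes that return arachidonic acid to phospholipids were detected at that level: Mboat7 at 145, Lpcat3 at 37.9 and Acsl4 at 3.65. The median of the release list, 0.685, was below that of the 10 prostaglandin genes, 1.40, and that of the return list, 37.9, was above it.

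Other routes out of PGH2 were mostly low. The prostacyclin synthase Ptgis had 0.223 from 8 reads, and Ptgds, Akr1b3 and Akr1c18 were listed at 0. Prxl2b, a prostaglandin F synthase, had 2.80. Cbr1, a carbonyl reductase that can also reduce prostaglandin E2, had 102, and 21.9% of its searched words are shared with another gene. For transport and later breakdown, 0 of 4 genes reached an RPKM of 1, beside 31% of all genes. Ptgr2 had 0.936, the export pump Abcc4 0.537, the uptake carrier Slco2a1 0.363 and Ptgr1 0.0843. Without length, Abcc4 had 5.72 RPM, Ptgr2 5.33, Slco2a1 3.51 and Ptgr1 0.390, where 50.9% of all genes were at 1 or more. A listing at 0 is not proof of absence, since Eno1, which encodes the glycolytic enzyme enolase, is at 0 too. The limit taken for a count of 0 over the 6 libraries was 3 reads, or 0.390 RPM, a one-sided 95% bound, which is lower than the upper end of the 2-sided interval used for the levels.

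Of the 9 classical prostanoid receptor genes, Ptger4 ranked 2 and Ptger2 ranked 4. Ptger1, which encodes the receptor EP1, was listed higher, at 5.12 (4.48 to 5.82), or 3.25 times Ptger4 (2.53 to 4.22). Its value and its place above Ptger4 are uncertain, because whether reads were counted by strand is not stated. The thromboxane receptor gene Tbxa2r had 1.10 (0.822 to 1.44) from 52 reads, beside 50.6 for the synthase of its ligand. The prostaglandin D2 receptors, Ptgdr and Ptgdr2, had 0.117 from 6 reads and 0.0908 from 2 reads. Ptgir had 0.118, Ptger3 0.0786 and Ptgfr was listed at 0. Pparg, a nuclear receptor that binds prostaglandin D2 metabolites, had 1.12.

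Of the 19 genes that act below EP2 and EP4, 13 reached an RPKM of 1, beside 31% of all genes. The median level of all 19 was 2.60. The 19 genes were led by the cyclic AMP phosphodiesterase gene Pde4b at 121 and the stimulatory G protein gene Gnas at 73.8. Pde3b, another phosphodiesterase gene, had 42.4, and Prkar1a, a regulatory subunit of protein kinase A, had 28.9. The cyclic AMP-responsive transcription factors Atf1, Crem and Creb1 had 11.7, 1.81 and 1.53. The adenylyl cyclase gene Adcy7 had 4.40, and the catalytic subunits Prkacb and Prkaca had 3.92 and 2.60. The receptor genes themselves had 1.57 and 0.394. For Pde4b and Gnas the same read total is listed on 2 transcript rows of different length, and their RPKM depends on which row is used. Of rows tied in reads, the row with the higher RPKM was kept, so the values given are the higher ones.

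**Figure D3:**
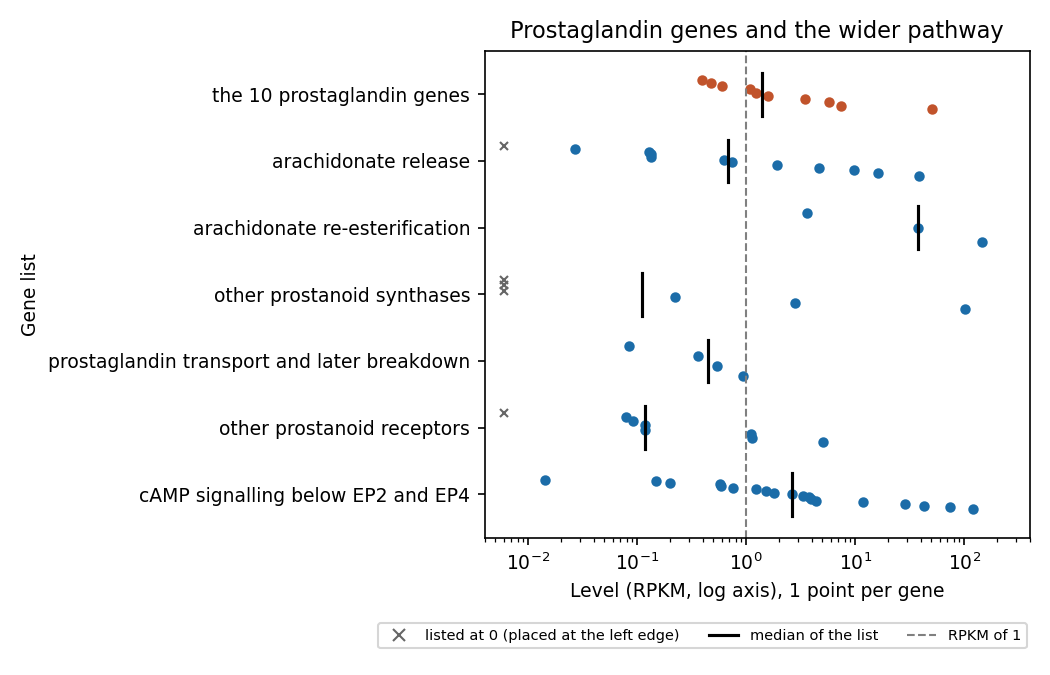
Levels (RPKM, log axis) of the 10 prostaglandin genes and of the 6 lists of the wider pathway, 1 point per gene, with the median of each list as a black line and genes listed at 0 as crosses at the left edge. The return of arachidonic acid to phospholipids has the highest median at 37.9, and other prostanoid receptors and synthases have medians of 0.117 and 0.111.

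Several of the 10 genes are also expressed by other cells of the colon, so markers of 12 other cell types were read in the same table. The counts at an RPKM of 1 or more below stand beside 31% of all genes. Tbxas1 and Ptgs1 are known from platelets and Tbxas1 from macrophages. Of the 7 platelet markers 4 had an RPKM of 1 or more, with a summed RPKM of 131: Gp1bb had 99.5, Itga2b 19.1, Ppbp 7.52 and Pf4 4.52, while Gp9 and Treml1 were listed at 0. Of the searched words of Gp1bb, 68.5% are in another gene. Macrophage markers had a summed RPKM of 94.2, with 5 of 6 at 1 or more; Csf1r had 41.0 and C1qb 37.9, and Mertk was listed at 0. The part of platelet or macrophage RNA in the Tbxas1 and Ptgs1 levels was not tested.

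Hpgds is known from mast cells and, with Ptgs1, from tuft cells. Of the mast cell markers 2 of 8 reached an RPKM of 1, and their summed RPKM was 4.36, led by Mcpt1 at 2.47 and Mcpt2 at 1.14; Tpsb2, Tpsab1 and Mcpt4 were listed at 0. Among tuft cell markers 1 of 7 did so, the factor Gfi1b at 14.0, which blood lineages also use; Dclk1 had 0.611, and Trpm5 and Chat were listed at 0. Epithelial markers, the setting in which Hpgd is abundant, were at 1 or more in 7 of 7, with a summed RPKM of 194, Epcam at 89.3 and Krt19 at 66.7. Fibroblast markers, from cells known to express Ptgs1, Ptgs2 and Ptges, were so in 5 of 6, with a summed RPKM of 137, Col3a1 at 66.7 and Col1a2 at 35.2. The part of epithelial or fibroblast RNA in the levels of Hpgd and the cyclooxygenase genes was not tested.

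Of the remaining lists, neutrophil markers had 2 of 6 at an RPKM of 1 or more (S100a9 at 23.9, S100a8 at 10.2, Mpo and Elane listed at 0), with Ly6g not matched. T cell markers had 3 of 5, led by Cd4 at 1.56 and Cd3e at 1.44. Endothelial markers had 1 of 4, Pecam1 at 16.3, with Cdh5 next at 0.535. Basophil, dendritic cell and B cell markers had none at that level, with summed RPKM of 0.198, 0.417 and 0.808. The highest basophil marker was Mcpt8 at 0.166, and the highest dendritic cell marker was Clec9a at 0.199.

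**Figure D4:**
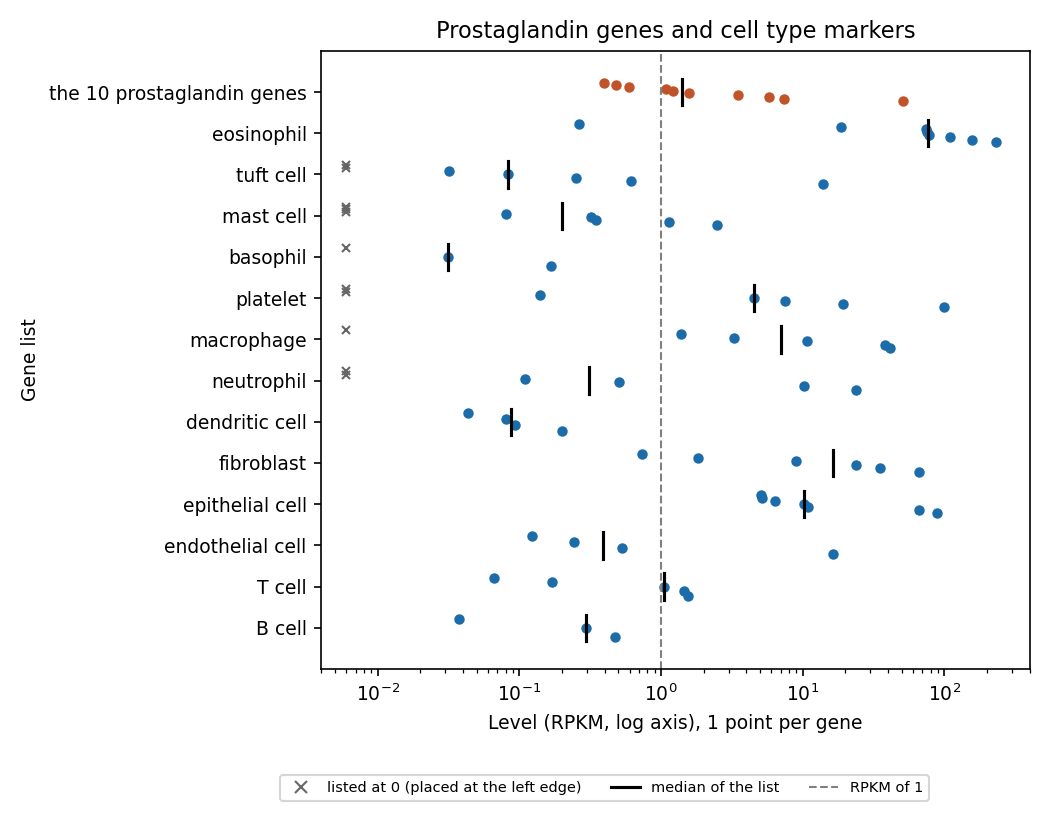
Levels (RPKM, log axis) of the 10 prostaglandin genes, 8 eosinophil markers and the markers of 12 other cell types, 1 point per gene, with the median of each list as a black line and genes listed at 0 as crosses at the left edge. The eosinophil list has the highest median at 76.8, followed by fibroblast at 16.4 and epithelial markers at 10.1, and the basophil list the lowest at 0.0316.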

How the data were processed

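The series measured gene expression in sorted colonic eosinophils, 2 samples of 1 group. Per the submitters' processing notes, STAR 2.4.2a and DESeq were used with build mm10; the sources used here name neither the read counter nor its annotation release. The table lists, per RefSeq transcript, a read total and an RPKM. Read totals deposited by the authors were treated as a signal: 100% of them were whole within 0.0001 once multiplied by 6, the number of libraries. RPKM values were computed by the authors, per the file headers. Both columns are values of the whole group, and there were 0 columns of other samples.

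Read totals times 6 gave reads, with exact 95% Poisson intervals. Ratios of reads have exact conditional (Clopper-Pearson) intervals. RPKM intervals and per-length ratio intervals are these, scaled by the RPKM per read. Rows were named through RefSeq (accession, symbol or synonym), and the row with the most reads was kept per gene. Where rows tied in reads, the row with the higher RPKM was kept. Promoters came from RefSeq, and transcript ends and shared 35-base words from GENCODE M21. The table's coordinates are 1-based and in mm10. CEL-Seq yields tags at the 3′ end whatever the length of a transcript, so the length term of RPKM lowers long transcripts; RPM was the alternative.

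The members, gene lists and motifs were chosen with earlier results of these data known. All 10 members are named; of the wider lists, genes that reached an RPKM of 1 and up to 3 listed at 0, and per marker list the highest 2 and those at 0. Genes named outside this rule (low receptors, synthases and transporters, Epx, Ppbp, Pf4 and Eno1) were named after their values were seen, and some items that the rule names are not reported here. Alternatives were RPM, rescaled RPKM, other row choices and other minimums. The intervals were tested on simulated Poisson counts only. These hold no amplification copies, no difference between libraries and no scaling to RPKM, so the intervals were not tested for those. Software was matplotlib 3.10.9, scipy 1.17.1, numpy 2.4.6 and pandas 2.3.3 under Python 3.11.15.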

Additional observations from a re-analysis of the deposited data

How the results depend on the processing

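Taking the row with the highest RPKM or the sum over a gene's rows changed none of the 10 levels, since the second Ptger4 row is at 0; summing moved the wider pathway genes at an RPKM of 1 or more from 26 to 27. As RPM, the summed level of the 10 genes was 396 and their median 8.12, and on RPKM rescaled to a sum of 1000000 they were 305.5 and 5.88; these are other units, and the order of the 10 genes changed only between Hpgd and Ptges2, by RPM. All 10 genes were at 1 or more on both scales, where 50.9% and 47.5% of all genes were. At an RPKM of 5 or more there were 3 prostaglandin genes and 12 of the wider pathway genes, and 47 of the latter were above 0; of all genes, 14.2% and 69.1% were. Without length the ratio of Ptgs2 to Ptgs1 was 0.985, with an interval that then included 1, and that of Ptger4 to Ptger2 was 2.58. RPKM is the authors' mean and RPM comes from summed reads, so the scales can differ in more than length. How much of each change is due to length was not tested. Leaving out a replicate was not run, because values per sample were not analysed here. No paired analysis was possible because the values come from 1 group and 1 mean. Depth limits the genes with 33 to 40 reads (Ptger2, Hpgds, Ptges, Hpgd and Ptges2), whose RPM intervals overlap.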

Other observations

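How reads are placed on transcript rows bears on genes with several rows. Of 4517 such genes, 2297 had a row with 20 or more reads, and in 692 of these (30.1%) at least 2 rows listed the same read total, so a sum over rows counts such totals more than once. Ptger4, with 85 reads on 1 row and 0 on the other, is the only one of the 10 prostaglandin genes with more than 1 row.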
